A study of Homo sapiens with 4 samples.

Results

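The zinc transporters and metallothioneins of C4-2 cells were described in control and enzalutamide-resistant cultures. The members are the protein-coding genes whose symbol starts with SLC30A (10 genes) or SLC39A (14 genes), 10 metallothionein genes (MT1A, MT1B, MT1E, MT1F, MT1G, MT1H, MT1M, MT1X, MT2A and MT3) and MTF1. They make up 35 of the 60483 gene identifiers counted, and were chosen by name. C4-2 is an established human prostate cancer line derived from LNCaP cells, used here at passages 20 to 30. The 2 control libraries (C4-2-CON) came from cells cultured without enzalutamide, and the 2 resistant libraries (C4-2-ENZ) from cells given this prostate cancer drug for 1 month. A treatment time of 1 month is recorded for both groups. Both groups share RPMI 1640 medium with 10% serum, and the labels also name FGF-2 without saying which cells received it. Resistance and the presence of the drug cannot be told apart in this design, and whether the replicates are separate cultures is not stated. The p-values therefore rest on the spread among 4 libraries, which may be technical.

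Zinc moves across membranes through proteins of opposite direction. Those of the SLC39A family (ZIP proteins) carry zinc, and some of them iron and manganese, into the cytosol from outside the cell or from organelles, and those of the SLC30A family (ZnT proteins) carry it out of the cytosol or into vesicles. Metallothioneins are small cysteine-rich proteins that bind zinc, copper and cadmium in the cytosol. MTF1 is the zinc-sensing transcription factor that binds metal response elements in the promoters of metallothionein genes and of SLC30A1. Normal prostate epithelium is known for holding unusually high zinc, and prostate cancer cells are known for holding less.

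The libraries held 25589724 to 45033885 reads counted in genes, and both resistant libraries were deeper than both control libraries. Records in rows that name no gene were 71.1% to 74.4% in control and 55.4% to 56.9% in resistant libraries, and records not aligned 34.2% to 37.0% and 20.3% to 20.7%. The part of this difference in the results was not tested. All 10 prostate luminal markers passed the filter on low counts. Their summed level was 4555 to 4675 CPM (counts scaled to library size) in control and 6603 to 6637 CPM in resistant libraries. KLK3 and KLK2 went against this sum, while the other 8 rose. As group means, KLK3 fell from 677.2 to 482.3 CPM and KLK2 from 330 to 301.8 CPM. The summed levels of 6 fibroblast markers (7.51 to 9.48 CPM in control, 7.17 to 7.74 CPM in resistant), 4 endothelial markers (4.28 to 4.66 and 3.06 to 3.59 CPM), 5 leukocyte markers (1.47 to 1.71 and 0.996 to 1.28 CPM) and 4 neuroendocrine markers (2.25 to 2.90 and 2.95 to 3.02 CPM) were low. COL1A2, CD3E, INSM1 and the basal keratin KRT5 had 0 counts in every library. The summed level of the 3 basal markers was at most 0.0839 CPM in control and 2.01 to 2.17 CPM in resistant libraries, nearly all of it from TP63. The part of these markers in the results below was not tested.

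Among importer genes 6 rose and 2 fell in resistant cells, among exporter genes 2 rose, SLC30A4 and SLC30A3, and 3 fell, and the 3 metallothionein genes with enough reads all fell. Of the 35 members, 25 passed the filter on low counts and were tested (9 SLC30A, 12 SLC39A, MT1F, MT1X, MT2A and MTF1). By the quasi-likelihood test of edgeR, 9 were called higher and 8 lower at an adjusted p below 0.05. This is 68% of the members tested, against 64.7% of all 20325 genes tested and 73.7% of the 13942 protein-coding genes tested, so a call by itself does not set the members apart. The members called higher were 36%, beside 33.0% of all genes and 42.3% of protein-coding genes, and those called lower 32%, beside 31.7% and 31.4%. By at least 1.5-fold, 3 of the 25 members tested were called higher and 5 lower. Beside this stood 16.9% and 19.5% of all genes and 20.3% and 15.9% of protein-coding genes. A change of this size therefore does not set the members apart either. The median log2 fold change was 0.24 for SLC39A, -0.001 for SLC30A and -0.64 for the metallothioneins, beside 0.088 for protein-coding genes and -0.016 for all genes.

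Scaling and gene length bear on these values. Fold changes are relative to TMM scaling, and scaling by total count moved the log2 median over all genes up by 0.188, with 64.4% of called genes higher in place of 51%. Long genes were higher in resistant libraries than short ones: the median log2 fold change of protein-coding genes was -0.53 below 1000 exonic bases and 0.28 from 10000 bases on. Each member was therefore also fitted with an offset for exonic length and GC content, and, chosen after seeing the data, for the length and GC content of its longest coding transcript. Of the 17 called members, 15 kept their call and direction with total count scaling, 15 with the first correction and 16 with the other. Over all members tested, total count scaling gave 15 higher and 6 lower, the first correction 12 higher and 8 lower and the other 9 higher and 11 lower, so the balance of directions rests on the setting. Under these settings 76.5%, 73.8% and 73.2% of protein-coding genes were called. Those called higher by at least 1.5-fold were 29.7%, 15.1% and 14.1%, and those called lower 11.1%, 16.7% and 16.1%. How many protein-coding genes kept their call and direction over all settings was not counted. The list that follows therefore does not set the members apart from other genes. Over all settings tried, replicates left out and DESeq2 included, 13 members were called in the same direction each time: SLC39A1, SLC39A7, SLC39A8, SLC39A10, SLC39A11, SLC39A13 and SLC30A4 higher, and SLC39A9, SLC39A14, SLC30A2, MT1F, MT1X and MT2A lower.

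**Figure D1:**
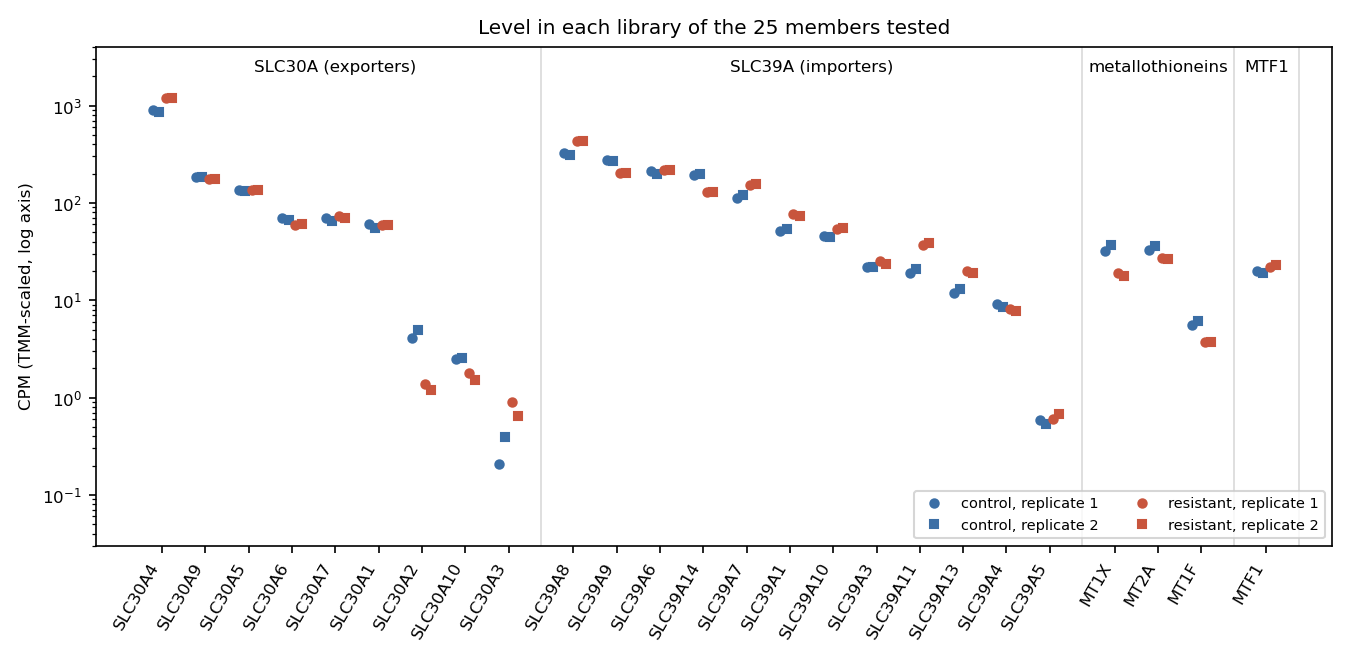
CPM (TMM-scaled, log axis) of the 25 members tested, by family and ordered by control mean. Each point is 1 library, control blue and resistant red, circles for replicate 1 and squares for replicate 2. SLC30A4 is the highest member in all 4 libraries (853.4 to 1187 CPM) and SLC30A3 and SLC39A5 are the lowest of those tested.

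Among the importers, 6 of 12 tested were higher in resistant cells, 2 were lower and 4 were not called. Beside this, 42.3% of protein-coding genes were higher and 31.4% lower. Total count scaling gave 8 higher and 2 lower (beside 53.5% and 23.1% of protein-coding genes), and with the correction for exonic length and GC 7 were higher and 3 lower (beside 36.2% and 37.6%). With the correction for transcript length 7 were higher and 3 lower, beside 35.2% and 38.1%. SLC39A8 (ZIP8), which carries zinc, iron, manganese and cadmium into cells, had the highest CPM of the importers. It had 324.9 and 314.0 CPM in the control libraries and 430.9 and 429.5 CPM in the resistant libraries. The groups did not overlap, and it rose 1.35-fold (log2 fold change 0.43, SE 0.0356, adjusted p = 6.32e-07 by edgeR). SLC39A14 (ZIP14) is its closest relative in the family and carries the same metals. It had 193.7 and 199.1 CPM in control and 130.8 and 130.4 CPM in resistant libraries, so both resistant values lay below both control values. It fell 1.5-fold (log2 fold change -0.59, SE 0.0392, adjusted p = 9.14e-08 by edgeR), and its value was -0.80 with the correction for exonic length and GC. These paralogs thus changed in opposite directions, each under every setting tried.

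SLC39A9 (ZIP9), a zinc transporter of the Golgi and plasma membrane, fell from 275.4 and 272.2 CPM in control to 203.7 and 204.0 CPM in resistant libraries. Its log2 fold change was -0.43 (SE 0.0363, adjusted p = 8.17e-07 by edgeR), or -0.24 with total count scaling. A neighbour on the opposite strand, ERH, covers 5.23% of the exonic bases of SLC39A9 and fell from 319.7 to 131.2 CPM (log2 fold change -1.28). Since no source used here gives the counting mode or strand setting, the part of ERH reads in this value was not tested.

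SLC39A11 (ZIP11), an importer found in the Golgi and nucleus, had the largest rise among importers. It had 19.13 and 20.74 CPM in control and 37.23 and 39.11 CPM in resistant libraries, a 1.91-fold rise (log2 fold change 0.93, SE 0.0624, adjusted p = 9.54e-08 by edgeR). The control values lay close together and far below the resistant ones, and the log2 fold change stayed between 0.78 and 1.12 over all settings. SLC39A13 (ZIP13), which releases zinc from vesicles and is mutated in a form of Ehlers-Danlos syndrome, had 11.79 and 13.01 CPM in control and 19.99 and 19.23 CPM in resistant libraries. It rose 1.58-fold (log2 fold change 0.66, SE 0.0693, adjusted p = 5.22e-06 by edgeR), but its value was 0.34 with the correction for exonic length and GC and 0.29 with that for transcript length.

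SLC39A1 (ZIP1), the importer most often tied to zinc uptake by prostate cells, had 51.98 and 53.67 CPM in control and 77.46 and 72.67 CPM in resistant libraries. Both resistant values were above both control values, with a 1.42-fold rise (log2 fold change 0.51, SE 0.0471, adjusted p = 1.74e-06 by edgeR). Of its 50-base stretches 61.0% also occur in transcripts of another annotated gene, AL358472.7 or CREB3L4. AL358472.7 lies on the same strand and is not analysed here. CREB3L4, on the opposite strand, covers 8.26% of the exonic bases of SLC39A1 and had a log2 fold change of 0.001 (adjusted p = 0.992 by edgeR). SLC39A7 (ZIP7), which releases zinc from the endoplasmic reticulum, had 112.3 and 119.8 CPM in control and 152.5 and 156.2 CPM in resistant libraries. Its log2 fold change was 0.41 (SE 0.0446, adjusted p = 6.79e-06 by edgeR), and RXRB, which covers 8.58% of its exonic bases from the opposite strand, rose by a similar log2 fold change of 0.47.

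SLC39A6 (ZIP6, also known as LIV-1) and SLC39A10 (ZIP10) form a complex at the plasma membrane. SLC39A10 rose from 45.93 and 44.22 CPM to 54.25 and 55.51 CPM (log2 fold change 0.28, SE 0.0457, adjusted p = 0.000178 by edgeR), or 0.47 with total count scaling. SLC39A6 had 211.0 and 199.9 CPM in control and 218.6 and 216.2 CPM in resistant libraries, with a log2 fold change of 0.082 (SE 0.0403, adjusted p = 0.0955 by edgeR). Its groups did not overlap although it was not called. SLC39A6 was called higher with total count scaling (0.27) and with the corrections for exonic length (0.26) and transcript length (0.17). It was also called higher without a filter on low counts (0.18), and its value was 0.12 without control replicate 1.

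The other importers tested were SLC39A3, SLC39A4 and SLC39A5, and none of them was called. SLC39A3 (ZIP3) had 21.97 and 24.44 CPM as group means (log2 fold change 0.16, SE 0.0639, adjusted p = 0.0513 by edgeR), and its sign turned with the correction for exonic length and GC (-0.061). It was called higher with total count scaling (0.34), with RLE scaling (0.16) and without a filter on low counts (0.25). With a replicate left out, its value ran from 0.10 to 0.23. SLC39A4 (ZIP4), the intestinal zinc importer mutated in acrodermatitis enteropathica, had 8.83 and 7.88 CPM (log2 fold change -0.16, SE 0.0861, adjusted p = 0.125 by edgeR). It turned to 0.029 with total count scaling and was called lower with the corrections for exonic length (-0.34) and transcript length (-0.465). SLC39A5 (ZIP5) had 0.535 to 0.587 CPM in control and 0.601 to 0.676 CPM in resistant libraries.

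**Figure D2:**
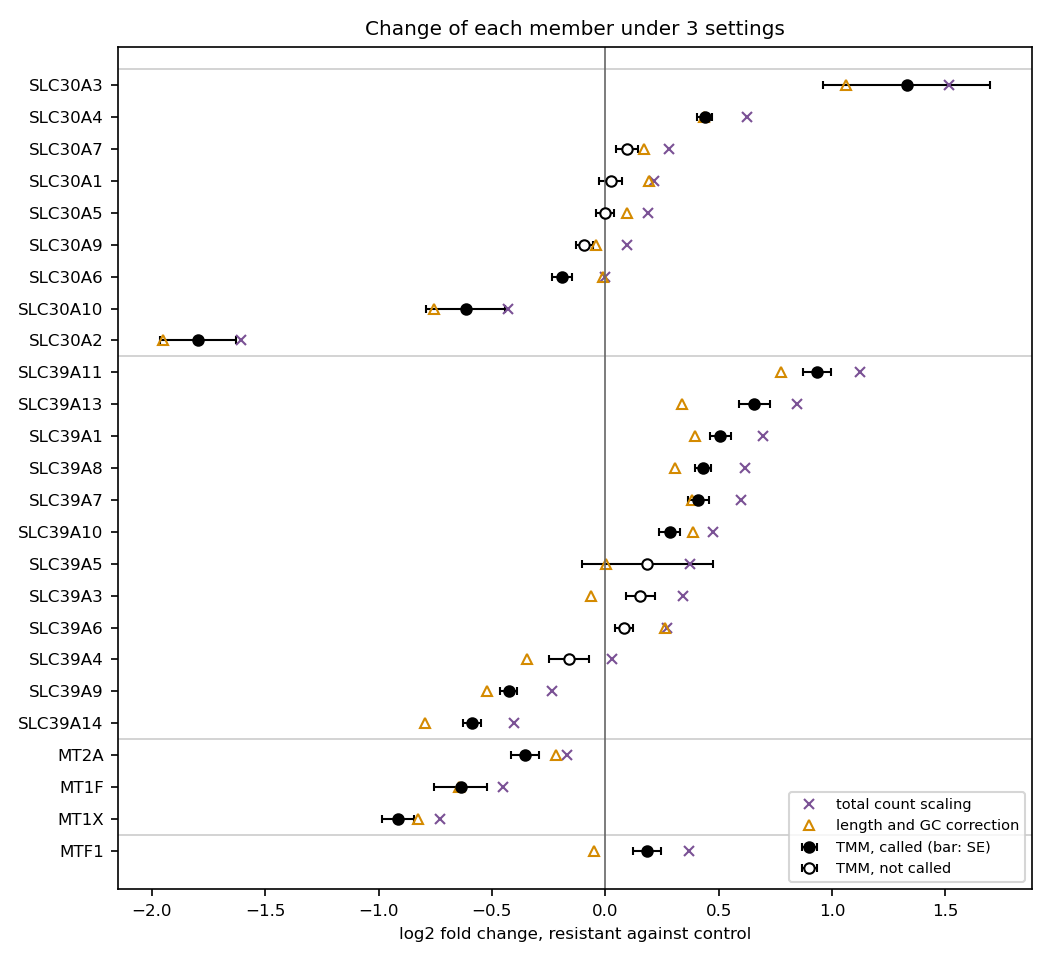
Log2 fold change of resistant against control cells for the 25 members tested, by family. Circles are the TMM values with their standard error, filled where called, crosses are values with total count scaling and triangles values with the correction for exonic length and GC. SLC39A8 and SLC39A14 lie on opposite sides of 0 under all 3 settings, and MTF1, SLC39A3, SLC39A4, SLC30A5 and SLC30A9 have values on both sides.

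Among the exporters, 2 of 9 tested were higher in resistant cells, 3 were lower and 4 were not called, beside 42.3% of protein-coding genes higher and 31.4% lower. This split depended on the setting. It was 6 higher and 1 lower by total count scaling (beside 53.5% and 23.1%), and 5 higher and 2 lower with the correction for exonic length and GC (beside 36.2% and 37.6%). SLC30A4 (ZnT4), which loads zinc into vesicles and is known for high levels in prostate epithelium, lies on chromosome 15 at 45479611 to 45522807 (GRCh38). It had 895.5 and 853.4 CPM in control and 1184 and 1187 CPM in resistant libraries. The resistant values were nearly equal and both above the control values, and SLC30A4 rose 1.36-fold (log2 fold change 0.44, SE 0.0338, adjusted p = 3.34e-07 by edgeR). HMGN2P46, which covers 2.66% of its exonic bases from the opposite strand, had 56.93 and 51.56 CPM as group means, with a log2 fold change of -0.14.

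SLC30A2 (ZnT2), a vesicle exporter known for secreting zinc into milk, had the largest fall of all members. It had 4.069 and 4.953 CPM in control and 1.390 and 1.206 CPM in resistant libraries, from 97 and 139 counts against 67 and 50 counts. The groups were far apart, and it fell 3.47-fold (log2 fold change -1.80, SE 0.169, adjusted p = 1.91e-06 by edgeR), with values from -2.03 to -1.61 over all settings. SLC30A3 (ZnT3), which fills synaptic vesicles with zinc, had 0.2097 and 0.3920 CPM in control and 0.8918 and 0.6514 CPM in resistant libraries, from 5 and 11 against 43 and 27 counts. It rose 2.51-fold (log2 fold change 1.33, SE 0.370, adjusted p = 0.00788 by edgeR), but the call ended without resistant replicate 1 (adjusted p = 0.073) and by DESeq2 (adjusted p = 0.0712).

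SLC30A10 (ZnT10), which exports manganese, had 2.517 and 2.566 CPM in control and 1.804 and 1.496 CPM in resistant libraries. It fell 1.53-fold (log2 fold change -0.62, SE 0.174, adjusted p = 0.00856 by edgeR), and the call ended with total count scaling (adjusted p = 0.0506), without resistant replicate 2 (0.0602) and by DESeq2 (0.0848). SLC30A5 and SLC30A6 (ZnT5 and ZnT6) form a pair that supplies zinc to enzymes of the secretory pathway. SLC30A6 had 69.93 and 67.32 CPM in control and 59.21 and 61.11 CPM in resistant libraries (log2 fold change -0.19, SE 0.0434, adjusted p = 0.00235 by edgeR). This fall was gone with total count scaling (-0.001) and with the correction for exonic length and GC (-0.012), and the call also ended without resistant replicate 1 (adjusted p = 0.0673) and without a filter on low counts (0.335). SLC30A5 had 136.9 and 133.5 CPM in control and 135.5 and 134.7 CPM in resistant libraries, with overlapping groups and a log2 fold change of -0.001 (SE 0.0402, adjusted p = 0.991 by edgeR).

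SLC30A1 (ZnT1), the exporter of the plasma membrane and a target of MTF1, had 60.74 and 54.74 CPM in control and 58.63 and 58.62 CPM in resistant libraries. The groups overlapped, and its log2 fold change of 0.024 (SE 0.0505, adjusted p = 0.697 by edgeR) became 0.21 with total count scaling and 0.19 with the correction for exonic length and GC, both called. SLC30A9 (ZnT9), of the mitochondria, had 184.9 and 186.6 CPM in control and 174.5 and 174.1 CPM in resistant libraries (log2 fold change -0.092, SE 0.0377, adjusted p = 0.0509 by edgeR). It was called higher with total count scaling (0.097) and lower with the correction for transcript length (-0.14), with a filter of 1 CPM (-0.14) and without control replicate 1 (-0.096) or 2 (-0.077). SLC30A7 (ZnT7), of the Golgi, had a log2 fold change of 0.095 (SE 0.0473, adjusted p = 0.101 by edgeR). It was called higher with total count scaling (0.28), with the correction for exonic length and GC (0.17), without a filter on low counts (0.19) and without control replicate 1 (0.15). SLC30A8 (ZnT8), the exporter of insulin granules, had 1 or 2 counts in each library and was not tested.

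Levels of different genes were compared as CPM per kb of the longest coding transcript in GENCODE 29. SLC30A4 took 55.6% to 56.2% of the summed exporter level in control and 64.1% to 64.3% in resistant libraries. It stood at 122.2 ± 4.16 and 165.6 ± 0.296 CPM per kb (SD, n = 2), ahead of SLC30A5 at 31.0 and 31.0 CPM per kb and SLC30A9 at 29.9 and 28.0 CPM per kb. The order of SLC30A5 and SLC30A9 turned when all exonic bases were used as the length. No importer led its family to the same extent. SLC39A8 took 23.6% to 24.3% of the summed importer level in control and 28.9% in both resistant libraries. By all exonic bases SLC39A6 was above SLC39A8 in control cells (55.79 against 49.29 CPM per kb) and below it in resistant cells (59.04 against 66.38). Per kb of the longest coding transcript, SLC39A6 followed at 58.0 ± 2.21, SLC39A9 at 52.7 ± 0.436, SLC39A7 at 48.2 ± 2.20 and SLC39A14 at 42.3 ± 0.823 CPM per kb in control cells. In resistant cells the order after SLC39A8 was SLC39A7 (64.1 ± 1.09), SLC39A6 (61.4 ± 0.479), SLC39A9 (39.3 ± 0.0409) and SLC39A14 (28.1 ± 0.0609). The shares have no test, and they depend on the transcript taken as the length of each gene.

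**Figure D3:**
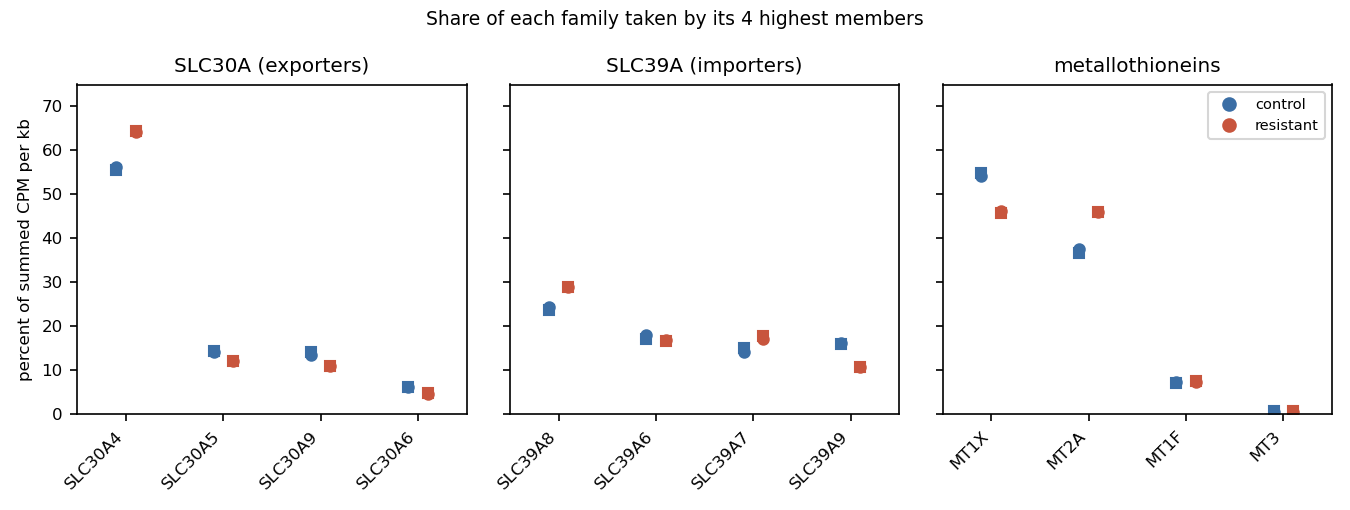
Percent of the summed CPM per kb of each family taken by its 4 highest members, with 1 point per library (circles replicate 1, squares replicate 2). SLC30A4 holds over 55% of the exporter level in all 4 libraries, and MT1X and MT2A are nearly level in the resistant libraries.

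The metallothionein genes lie together on chromosome 16. The promoters of MT1X and MT2A, the highest metallothioneins here, are shown with that of SLC30A2, the member with the largest fall. MTF1 acts through short metal response elements in promoters. Each is the 250 bases before a RefSeq start (GRCh38.p14), 5′ to 3′ on the gene's strand. Capitals mark matches to TGCACNC or TGCGCNC, the core of the metal response element, on either strand, and no 2 matches overlap in these windows. MT1X is at chr16:56682220-56682469 (plus strand), MT2A at chr16:56608334-56608583 (plus strand) and SLC30A2 at chr1:26046119-26046368 (minus strand).
MT1X: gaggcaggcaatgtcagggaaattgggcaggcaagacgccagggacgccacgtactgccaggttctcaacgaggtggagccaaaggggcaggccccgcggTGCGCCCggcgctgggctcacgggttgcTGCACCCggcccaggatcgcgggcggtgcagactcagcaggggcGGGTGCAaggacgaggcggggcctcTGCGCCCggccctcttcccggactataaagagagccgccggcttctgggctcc
MT2A: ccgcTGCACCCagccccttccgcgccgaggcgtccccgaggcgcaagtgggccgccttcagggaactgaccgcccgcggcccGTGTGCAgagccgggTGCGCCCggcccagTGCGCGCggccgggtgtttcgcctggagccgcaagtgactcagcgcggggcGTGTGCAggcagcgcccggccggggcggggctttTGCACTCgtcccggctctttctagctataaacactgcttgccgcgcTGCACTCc
SLC30A2: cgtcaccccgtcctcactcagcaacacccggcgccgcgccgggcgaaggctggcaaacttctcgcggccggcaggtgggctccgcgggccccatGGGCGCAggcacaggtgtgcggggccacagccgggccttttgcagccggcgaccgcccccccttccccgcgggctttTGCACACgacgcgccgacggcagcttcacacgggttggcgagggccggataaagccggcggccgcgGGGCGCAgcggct
MT2A held 7 matches, MT1X 4 and SLC30A2 3. Of 35114 promoter windows of the same length, 24.8% held at least 1 match, 6.48% at least 2 and 0.37% at least 4. RefSeq windows were found for 26 of the 35 members. All 4 metallothionein genes with a window (MT1B, MT1H, MT1X and MT2A) held at least 2 matches, as did 2 of 9 exporters (SLC30A2, and SLC30A3 at 1 of its starts) and 0 of 12 importers. The window of SLC30A1 held 1 match. For the windows of SLC30A1, MT1B and the SLC30A3 start counted here, the first bases after the start were not found in a transcript of GENCODE 29, and the window of MTF1 held 0. A match is a description of the letters and not a bound site, and the part of MTF1 in any fall was not tested.

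MT1X fell most among the metallothioneins. It had 32.38 and 36.78 CPM in control and 18.89 and 17.83 CPM in resistant libraries, from 772 and 1032 counts against 911 and 739 counts. The groups were well apart, and the log2 fold change was -0.92 (SE 0.0711, adjusted p = 3.59e-07 by edgeR). MT1F had 5.621 and 6.058 CPM in control and 3.754 and 3.764 CPM in resistant libraries, and fell 1.56-fold (log2 fold change -0.64, SE 0.117, adjusted p = 0.000502 by edgeR). MT2A, the metallothionein most widely expressed in human tissues, had 32.68 and 35.89 CPM in control and 27.44 and 26.22 CPM in resistant libraries. Its fall was smaller, at 1.28-fold (log2 fold change -0.35, SE 0.0620, adjusted p = 0.000345 by edgeR), and was -0.17 with total count scaling (adjusted p = 0.0402).

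Gene length moved with these falls. The longest coding transcripts of MT1X, MT1F and MT2A have 538, 690 and 786 bases, and of the 566 protein-coding genes tested with one under 1000 bases, 336 were lower and 73 higher (median log2 fold change -0.52). With the correction for transcript length and GC, MT1X, MT1F and MT2A had log2 fold changes of -0.61, -0.48 and -0.29, all called lower by edgeR, while the median of those short genes was -0.30. MT2A was thus no lower than short genes in general under this correction. MT1X and MT1F were below that median. By exonic length, MT1X, MT1F and MT2A have 1773, 1889 and 1299 bases. Without a correction, the quartiles of protein-coding genes of 1000 to 2000 exonic bases were -0.76 and 0.34. The values of MT1F (-0.638) and MT2A (-0.355) lay between these quartiles, and that of MT1X (-0.915) lay below them. The part of gene length in the falls of MT1X and MT1F beyond these corrections was not tested.

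**Figure D4:**
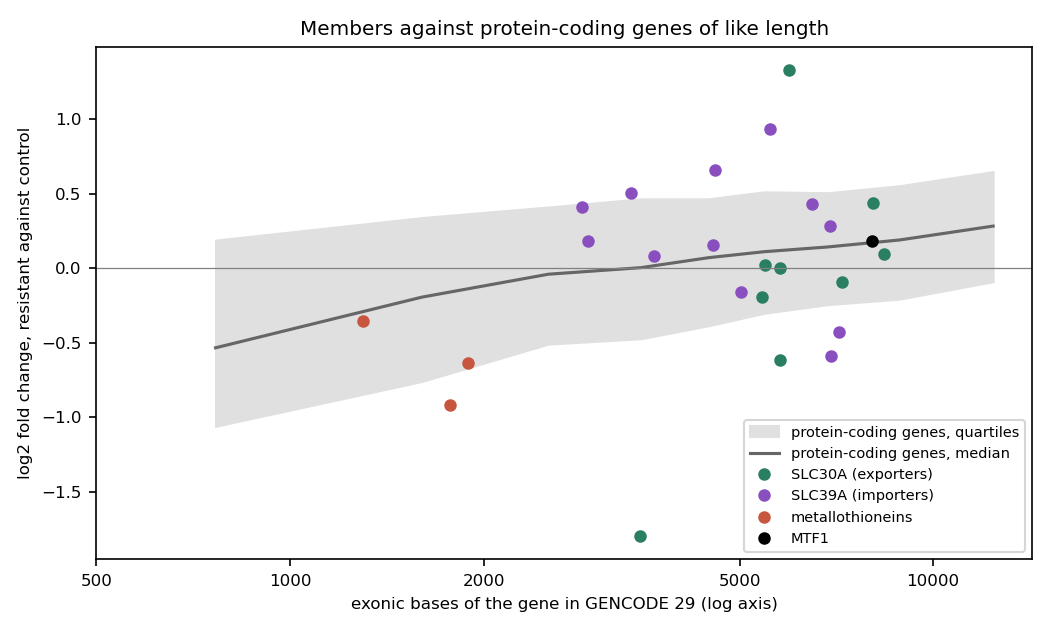
Log2 fold change of the 25 members tested against the exonic bases of each gene (log axis), over the median (line) and quartiles (grey) of protein-coding genes in bins of length. The 3 metallothioneins lie at the short end, where the median of all protein-coding genes is also below 0, and MT1X is the lowest of them.

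Per kb, MT1X stood at 64.3 ± 5.78 in control and 34.1 ± 1.39 CPM per kb in resistant libraries, and MT2A at 43.6 ± 2.89 and 34.1 ± 1.10 CPM per kb (SD, n = 2). MT1X was above MT2A in both control libraries, and their values overlapped in resistant libraries. With all exonic bases as the length, MT2A was the higher in both groups (26.39 against 19.50 CPM per kb in control, 20.66 against 10.36 in resistant cells), so the order depends on the length used. MT1X shares 43.6% of its 50-base stretches with transcripts of other genes, AC026461.1, MT1G and the pseudogene MT1XP1 among them, whereas MT1F and MT2A share 3.27% and 4.24%. AC026461.1 overlaps MT1X on the same strand and had 0 counts in every library. No source used here gives the read length, so the share of MT1X reads lost or gained in this way is unknown.

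The other 7 metallothioneins did not pass the filter. MT1B, MT1E, MT1H and MT1M had 0 counts in every library, as did the importer SLC39A12, which is known mainly from brain. A count of 0 allows up to 0.126 and 0.107 CPM in control replicates 1 and 2 and up to 0.0622 and 0.0724 CPM in resistant replicates 1 and 2, for counting error only. MT1E keeps 92.9% of its 50-base stretches to itself, MT1M 90.1%, MT1H 84.2% and MT1B 81%, so shared sequence covers a minority of each. MT1A had 3 and 6 counts in control and 2 and 2 in resistant libraries, MT1G had 5 and 9 against 4 and 4, and MT3, the brain form, had 5 and 12 against 7 and 10. SLC39A2 had 1 and 2 against 2 and 8 counts. The highest count of any untested member in a library was 12. Of 10 other metallothionein loci, mostly pseudogenes, only MT1DP was tested, at 1.09 and 1.02 CPM, and it was not called (edgeR adjusted p = 0.809).

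MTF1, the regulator of the metallothionein genes, had 20.18 and 19.10 CPM in control and 21.73 and 22.82 CPM in resistant libraries. It was called higher with a log2 fold change of 0.18 (SE 0.0629, adjusted p = 0.0239 by edgeR). The direction rested on the setting: its value was 0.37 with total count scaling, -0.049 with the correction for exonic length and GC and -0.18 with that for transcript length (adjusted p = 0.0114). Its call also ended with a filter of 1 CPM (adjusted p = 0.0743), without control replicate 2 (adjusted p = 0.0721), without resistant replicate 2 (0.146) and by DESeq2 (0.128).

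Other genes of metal handling moved both ways. Of protein-coding genes, 42.3% were called higher and 31.4% lower. These shares were 53.5% and 23.1% with total count scaling, and 36.2% and 37.6% with the correction for exonic length and GC. Of 9 tested zinc genes outside the families, 5 were higher and 3 lower (median log2 fold change 0.19, or 0.002 with the correction for exonic length and GC, where 4 were higher and 4 lower). Among them SLC11A2, an iron and metal importer, fell from 150.2 to 103.0 CPM. Copper handling genes were more often lower, with 8 of 15 lower and 3 higher (median -0.22). With total count scaling 6 were lower and 5 higher (median -0.028), and with the correction for exonic length and GC 10 were lower and 2 higher. COX17, the copper chaperone of cytochrome oxidase, fell from 99.87 to 48.52 CPM and COMMD1, a copper export factor, from 37.06 to 14.27 CPM. Of 16 iron handling genes 5 were higher and 6 lower (median -0.060), or 8 higher and 4 lower by total count scaling (median 0.13). With the correction for exonic length and GC, 6 iron handling genes were higher and 7 lower (median -0.058). TFRC, the transferrin receptor, fell from 756.5 to 428.3 CPM, while ACO1, an iron-sensing regulator, rose from 51.28 to 114.3 CPM. Of 9 tested genes of the response to metals and heat, 4 were higher and 3 lower (median 0.20), or 6 higher and 2 lower by total count scaling. The correction for exonic length and GC gave 4 higher and 3 lower in this list (median 0.15). GCLC, of glutathione synthesis, rose from 65.03 to 135.0 CPM, and HSPA1B rose from 54.09 to 100.7 CPM, with the limit that reads of its near-identical copy HSPA1A, which did not pass the filter, may be counted in it. In these bulk libraries, fewer cells with a transcript and less of it per cell cannot be told apart.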

How the data were processed

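Total RNA of 4 libraries was sequenced. The authors deposited raw read counts per gene, 1 table per library. The submitters' processing notes name STAR 2.5.2b, HTSeq and GRCh38. No source used here gives the counting mode, strand setting or annotation release. The 5 rows of each table that name no gene were left out. Identifiers were matched without version to GENCODE 29, which covered 56753 of 60483. Each library was treated as 1 replicate. Counts within a pair differed by more than sampling noise (chi-square per degree of freedom 5.67 in control and 2.38 in resistant libraries). This does not show whether the libraries came from separate cultures.

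Resistant was compared with control over all genes by the quasi-likelihood test of edgeR 4.0.16 in R 4.3.3 (filterByExpr with a minimum count of 10, TMM, group as the only term, 2 residual degrees of freedom). Calls are at a Benjamini-Hochberg adjusted p below 0.05 over 20325 genes. The standard error is the log2 fold change divided by the square root of F. The length and GC corrections added an offset per library from splines with 5 degrees of freedom. Other settings were RLE and total count scaling, other filters, DESeq2 1.42.0, each replicate left out and a replicate block. The fit was also run on simulated data, and the outcome of that run is not reported here.

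All members are named. The rule gave library values to members called with a fold of at least 1.5 and to the 3 highest of each family per length. Values of further members by library go beyond that rule. From each other list the 2 called genes with the smallest adjusted p are named, except for 1 gene that is not reported here. Members and lists were chosen with earlier results of these data known.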

Additional observations from a re-analysis of the deposited data

How the results depend on the processing

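The counts of all genes and of importers and metallothioneins called in each direction stayed within 1.5 times their values under every setting tried. Exporters called higher numbered 2, but 6 with total count scaling, 5 with the exonic length and GC correction, 1 with a filter of 1 CPM (SLC30A3 is then not tested), 1 by DESeq2 and 1 (without resistant replicate 1) to 3 (without control replicate 1) with a replicate left out. Exporters called lower numbered 3, but 1 with total count scaling. Signs turned for small values, and the cause was not tested. MTF1 was -0.049 with the exonic length and GC correction and -0.18 with the transcript length and GC correction, which was chosen after seeing the data. SLC30A1 was -0.023 with a filter of 1 CPM and from -0.042 (without control replicate 2) to 0.102 (without control replicate 1) with a replicate left out. SLC30A5 was 0.188 with total count scaling, 0.005 with RLE, 0.095 without a filter, 0.096 and 0.056 with the exonic and transcript length corrections, 0.005 by DESeq2 and -0.010 to 0.020 with a replicate left out. SLC30A9 was 0.097 with total count scaling and 0.004 without a filter. SLC39A3 was -0.061 and -0.040 with the exonic and transcript length corrections, and SLC39A4 was 0.029 with total count scaling. Of the single-member values over all settings, 244 kept direction and side of the threshold, 13 lost the call, 23 gained it and 18 turned.

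The replicate numbers pair nothing that the labels name, and the deviations of same-numbered libraries correlated at -0.023 over genes. With the replicate block 6647 genes were higher and 6444 lower, and the member families kept their counts: 2 exporters higher and 3 lower, 6 importers higher and 2 lower, and 3 metallothioneins lower. Depth limits SLC30A3 and the untested members, which had at most 12 counts in a library.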
